A study of Mus musculus with 2 samples.

Results

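The cells described here are 484 tumor macrophages with much *C1q* RNA and little *Vcam1* RNA, out of 6363 cells that passed the quality filter and 6742 barcodes in all. They came from 2 single-cell RNA libraries of leukocytes sorted from AT3 tumors, grown from a mouse mammary carcinoma cell line in the mammary fat pad. The first library was from *Pgd* fl/fl mice, which carry loxP-flanked *Pgd* alleles and no Cre (labelled WT, the name used below), and the second from *Pgd* fl/fl LysM Cre mice, which carry the same alleles together with Cre inserted at *Lyz2* (labelled 6PGDKO). Each library pooled the tumors of several young adult female mice, and no treatment was given. The labels name the sort as CD45+ in one place and as live CD11b+ in another. The study's methods give live CD45+ cells, and T cells were 45.5% of the kept WT and 36.1% of the kept 6PGDKO cells. CD45+ was therefore taken as the gate here. LysM Cre is active in macrophages, neutrophils and part of the dendritic cells, so that lymphocytes in the same tumors keep the gene. The suspensions were tagged with oligonucleotides and pooled before capture, but each genotype is 1 pool of tumors, so that genotype and the handling of that pool up to tagging cannot be told apart.

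Macrophages are the main source of *C1qa*, *C1qb* and *C1qc*, which encode the chains of the first component of the classical complement pathway. Macrophages also make *Apoe*, the lipid carrier. *Vcam1* encodes an adhesion molecule that binds integrins on leukocytes and is made by endothelium and by part of the tissue macrophages. *Pgd* encodes phosphogluconate dehydrogenase, an NADPH-forming enzyme of the oxidative pentose phosphate pathway.

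The cells were selected on their own UMIs (unique molecular identifiers, random tags that count captured RNA molecules once each). A cell had 500 to 7500 genes and at most 15% mitochondrial UMIs. It held at least 30 UMIs of *C1qa*, *C1qb* and *C1qc* together, at most 1 of *Cd3d*, *Cd3e* and *Cd3g*, fewer than 10 of *Gpnmb*, at most 2 of *Mki67* and *Top2a*, and fewer than 5 of *Vcam1*. Of the 3565 WT cells kept, 738 met the *C1q* limit, 573 of these also the *Cd3* limit, 566 the *Gpnmb* limit and 510 the limit on cycling genes, and 246 had fewer than 5 *Vcam1* UMIs. In 6PGDKO the same steps left 808, 512, 499, 453 and 238 of 2798 cells. No cell barcode occurred in both libraries, and in every member the sample oligonucleotide of its own library was the most abundant one. The suspensions were pooled before capture and told apart by these oligonucleotides, so neither value is an independent check of genotype.

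The members held a median of 9215 UMIs from 2510 genes in WT and 11131 UMIs from 2755 genes in 6PGDKO, and 2413692 and 2702825 UMIs in all. The 264 and 215 otherwise equal cells with 5 or more *Vcam1* UMIs, called Vcam1-high here, were deeper, at medians of 12286.5 and 12736 UMIs. In cells thinned to 5000 UMIs, a *Vcam1* UMI was left in 78 of 195 WT members and 69 of 210 6PGDKO members, against 98.4% and 98.1% of the Vcam1-high cells. T cells, which should lack the gene, had one in 2.2% and 2.8%. Levels below are CPM, the UMIs of a gene summed over the cells of a library scaled to counts per 1e+06 UMIs of those cells. Ratios are log2 ratios with exact 95% intervals, which cover counting error only. They treat every UMI as independent and leave out variation between cells and between mice. With 1 library a genotype no test was made, and a gene is counted as higher or lower when it is at least 1.5-fold apart.

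Vcam1-low cells made up 6.90% of all kept WT cells (6.09% to 7.78% by the Clopper-Pearson method) and 8.51% of the kept 6PGDKO cells (7.498% to 9.602%). Those shares move with the number of lymphocytes in each library, since B cells alone were 14.1% and 1.22%. Among the C1q macrophages themselves, the Vcam1-low share was 48.2% (43.8% to 52.7%, 246 of 510) and 52.5% (47.8% to 57.2%, 238 of 453), and these intervals overlap. The cells without any *Vcam1* UMI differed more, with 18.2% of the C1q macrophages in WT (93 cells, 14.98% to 21.87%) and 30.02% in 6PGDKO (136 cells, 25.8% to 34.5%). After thinning, which left out 62 and 37 shallower cells, the shares were 26.1% (22.1% to 30.4%) and 34.9% (30.3% to 39.7%), and the intervals met by a small margin. All these intervals cover the counting of cells in 1 library each and leave out variation between mice, so the difference was not tested. Just inside the *Vcam1* limit, 28 and 24 cells had 4 UMIs, and just outside it 25 and 21 cells had 5, so there was no gap at the limit. At the *C1q* limit, 21 cells of each library had 30 to 39 UMIs, while 13 and 31 otherwise equal cells fell just short with 20 to 29.

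**Figure D1:**
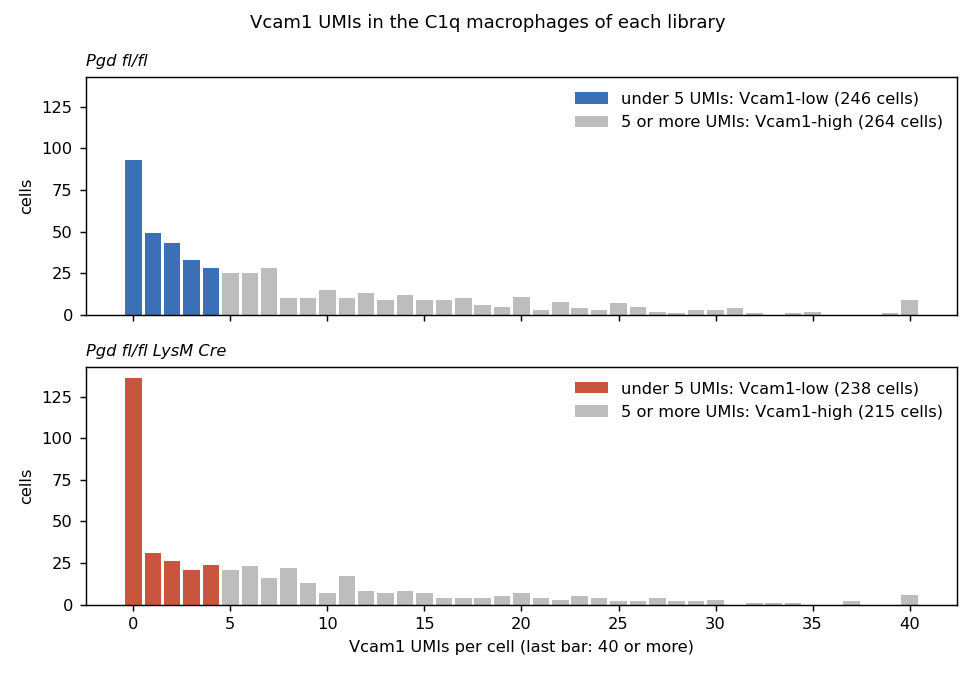
Number of C1q macrophages (vertical axis, cells) by their *Vcam1* UMIs (horizontal axis), with WT (drawn as Pgd fl/fl) above and 6PGDKO (drawn as Pgd fl/fl LysM Cre) below. Coloured bars are the Vcam1-low cells and grey bars the Vcam1-high cells, and the bar at 0 holds 93 cells above and 136 below.

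Beside the *C1q* genes, which the selection fixed, the members carried RNA of other macrophage markers. *Cd68*, a lysosomal protein of macrophages, was found in 227 of 246 and 215 of 238 members, *Adgre1*, which encodes F4/80, in 183 and 156, and *Mertk*, a receptor for dying cells, in 61 and 67. *Csf1r*, the receptor for the macrophage growth factor CSF-1, stood at 471.9 CPM in WT and 466.5 CPM in 6PGDKO, in 225 of 246 and 224 of 238 members. Of the 5 genes given as markers of these cells, *C1qa*, *C1qb* and *Apoe* were abundant. *Adamdec1*, a metalloprotease-like gene of gut and lymphoid macrophages, and *Ccl8*, a monocyte-attracting chemokine, did not mark the Vcam1-low cells. *Adamdec1* was found in 32 of 246 and 28 of 238 members, at 23.2 and 21.5 CPM, and stood higher in the Vcam1-high cells, at 37.4 and 61.6 CPM. *Ccl8* was at 68.4 and 69.6 CPM in the members, and at 188 and 129 CPM in the Vcam1-high cells. Both genes thus go against the marker list, and the cells are named here by their selection alone.

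The *C1q* chains, on which the cells were chosen, were at 5542 (*C1qa*), 5168 (*C1qb*) and 3382 CPM (*C1qc*) in WT, and at 4383, 4335 and 2469 CPM in 6PGDKO. A member held a median of 118 *C1q* UMIs in WT and 103.5 in 6PGDKO, with the 10th and 90th percentiles at 43.5 and 248 and at 41.4 and 234.3. *Apoe* was the most abundant of the marker genes, at 18829.7 CPM in WT and 11542.4 CPM in 6PGDKO. In Vcam1-high cells *Apoe* was at 20766.1 and 22615.5 CPM, so that only the Vcam1-low cells of 6PGDKO stood apart among these groups. Within the members, *Apoe* was lowest in cells with 0 *Vcam1* UMIs. In WT it was at 14067.6, 18625.2, 19964.1, 22866.7 and 27231.8 CPM in cells with 0, 1, 2, 3 and 4 *Vcam1* UMIs, and in 6PGDKO at 7661.6, 16612.7, 19524, 14809.4 and 18272 CPM. In WT the level was higher at each further count, while in 6PGDKO it was higher from 1 UMI on, without a further order. At 5 UMIs, outside the limit, it was 19929.8 and 13283.2 CPM.

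RNA of other cell types was present at low levels. Summed over 9 monocyte markers (among them *Ly6c2*, *Chil3*, *Plac8*, *Ccr2*, *Vcan*, *Hp*, *Ace* and *Adgre4*), all detected, the members had 201.8 CPM in WT and 473.6 CPM in 6PGDKO, against 95.5 and 55.9 CPM in the Vcam1-high cells and 8524 and 8233 CPM in Ly6c2 Chil3 monocytes. Lymphocytes carry some of these genes too, since the same sum was 873 and 735 CPM in T cells and 1151 and 1032 CPM in B cells. T cell markers came to 47.6 and 50.3 CPM, all 10 detected, against 75.1 and 59.8 CPM in the Vcam1-high cells. B cell markers came to 213 and 119 CPM, all 8 detected, against 1271 and 80.1 CPM in the Vcam1-high cells. Neutrophil markers came to 156 and 36.6 CPM, in 69 and 65 members, against 84.3 and 68.4 CPM in the Vcam1-high cells. Of these 8 markers 6 and 5 were detected, with *Ly6g* and *Retnlg* at 0 in both libraries. Epithelial markers came to 101 and 237 CPM, against 36.8 and 14.2 CPM in the Vcam1-high cells. Of these 7 markers 5 were detected in each library, with *Krt5* and *Krt19* at 0. Mast cell markers came to 10.8 and 32.9 CPM from 2 and 1 cells. The 7 fibroblast markers were all at 0. Of the 7 endothelial markers, at 19.9 and 32.6 CPM, 4 and 3 were detected, and *Cldn5*, *Egfl7* and *Emcn* were at 0 in both. The 9 dendritic cell markers, all detected, came to 76.6 CPM in each library. Ratios without the members that held monocyte, lymphocyte or *Cd207* and *Epcam* UMIs are given for some of the genes below. Without the members that held 5 or more UMIs of keratin, neutrophil, mast cell, *Igkc* or *Gzma* genes, which left 236 and 230 cells, 376 genes were higher and 283 lower between the genotypes, and 95 higher and 122 lower than in Vcam1-high cells, close to the counts given below. The part of the dendritic and endothelial cell RNAs was not tested.

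**Figure D2:**
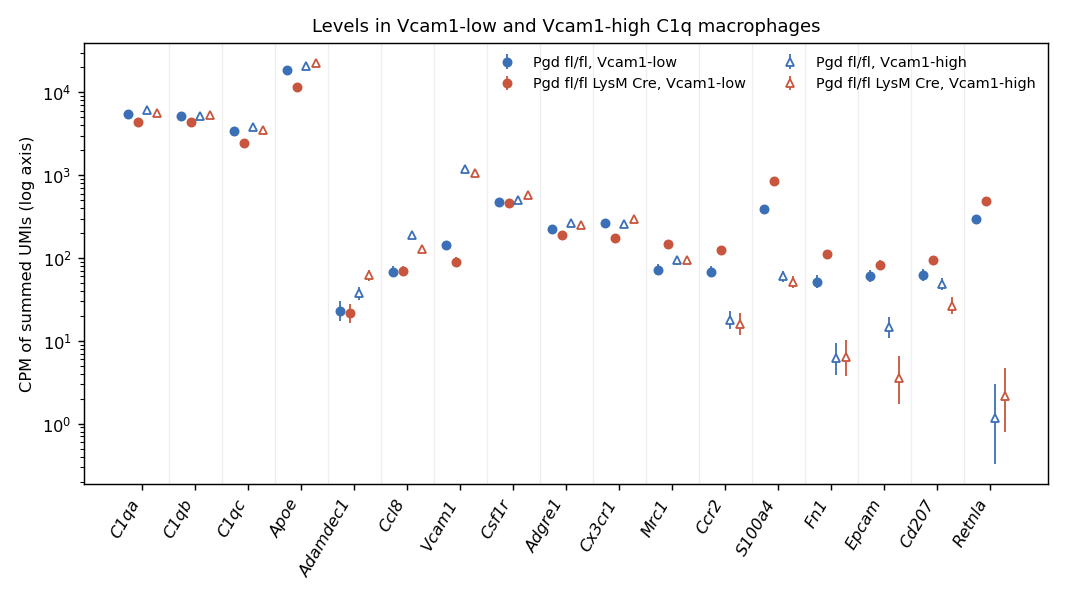
Level of 17 genes (vertical axis, CPM of summed UMIs on a log axis) in Vcam1-low cells (filled circles) and Vcam1-high cells (open triangles) of WT (blue) and 6PGDKO (red), with exact Poisson 95% intervals. *Adamdec1* and *Ccl8* sit lower in the Vcam1-low cells, and *Ccr2*, *S100a4*, *Fn1*, *Epcam* and *Retnla* higher, in both libraries.

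The first comparison set the members beside the Vcam1-high C1q macrophages of the same library. Both groups were cut from the same cells on *Vcam1*, so this is a description. Of 7154 genes with 50 or more UMIs in each library, 98 (1.37%) were at least 1.5-fold higher in the Vcam1-low cells of both libraries and 107 (1.5%) were lower in both. The median ratio over all genes was -0.04 in each library. The genes furthest apart were *S100a4*, *S100a6*, monocyte genes and a few genes carried by small groups of cells, all higher in Vcam1-low cells. *S100a8* and *S100a9*, S100 genes of neutrophils, had no common direction, since *S100a8* was at 33.6 against 21.4 CPM in WT and 3.33 against 12.8 CPM in 6PGDKO, and *S100a9* at 81.2 against 10.7 CPM (196 UMIs from 4 members) and 0.74 against 11.4 CPM. Vcam1-low cells had less RNA of *Spic*, *Cd38*, *Il1a*, *Mmp2*, *Il10* and *Cxcl1*.

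*S100a4*, a calcium-binding protein abundant in monocytes, was at 393.2 CPM in Vcam1-low against 59.9 CPM in Vcam1-high cells of WT (2.71, 2.49 to 2.94), and at 862.8 against 51.6 CPM in 6PGDKO (4.06, 3.82 to 4.31). It was found in 32.9% and 57.6% of the members. The related *S100a6* had ratios of 2.14 and 3.35, and *S100a10*, which partners annexin A2, had 1.70 and 2.45. *Anxa2* itself was at 1.73 and 2.08 and *Ahnak*, a giant scaffold protein of the same complex, at 2.47 and 2.61. *Tmsb10*, an actin-binding peptide, was at 1.46 and 1.68. *Tmsb10* was detected in 52.8% and 71.0% of the members and *S100a10* in 36.6% and 58.8%. *Ahnak* (24.4% and 40.8%) and *Anxa2* (31.3% and 50.8%) were in fewer cells, and in WT 5 cells held 37.2% and 33.4% of their UMIs.

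*Ccr2*, the chemokine receptor that brings monocytes into tissue, was at 68.4 against 18.1 CPM in WT (1.92, 1.49 to 2.37) and at 125.8 against 16.0 CPM in 6PGDKO (2.97, 2.52 to 3.46), with 41.2% and 30.9% of its UMIs in 5 cells. *Plac8*, another monocyte gene, had ratios of 1.496 and 3.593, and 5 cells held 82.8% and 44.6% of its UMIs. *Fn1*, fibronectin, had 3.06 and 4.12, with 88.0% and 71.8% in 5 cells, and *Ifitm1*, an interferon-induced membrane protein, had 3.12 and 2.65, with 85.1% and 60.4%. Of 12 monocyte genes tested in this comparison, 6 were higher in both libraries, against 1.37% of all genes, and 0 lower, against 1.5%, with a median ratio of 1.02 in WT and 3.16 in 6PGDKO. By summed UMIs *Ly6c2* had opposite directions, with -0.59 (-1.01 to -0.17) in WT and 3.52 (2.98 to 4.11) in 6PGDKO. The WT value rested on 151 UMIs from 12 of 264 Vcam1-high cells, against 72 UMIs from 20 of 246 members. In thinned WT cells the members were not lower, at a mean of 0.149 against 0.130 UMIs. There *Ly6c2* was found in 6.15% of members and 2.37% of Vcam1-high cells. The thinned means in 6PGDKO were 0.671 and 0.029, so only the WT direction was unsettled. Leaving out the members with 5 or more UMIs of *Ly6c2* and *Chil3* together gave *Ccr2* ratios of 2.02 and 2.90 and *S100a4* ratios of 2.92 and 4.35. Without the members that held lymphocyte UMIs the *Ccr2* ratios were 1.95 and 3.20, with *Ccr2* at 129 and 160 CPM in T cells.

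*Retnla*, a secreted protein of alternatively activated macrophages, had the highest ratios, at 7.96 (6.59 to 9.84) and 7.83 (6.70 to 9.28). It had 711 UMIs in Vcam1-low against 4 in Vcam1-high cells of WT, and 1311 against 6 in 6PGDKO. These UMIs came from 4 and 12 cells, and 5 cells held 100% and 99.2% of them, so the intervals are too narrow. Without the 2 and 5 cells that had 5 or more *Retnla* UMIs, the ratios were -0.51 and 0.83. *Epcam*, an adhesion molecule of epithelium and of Langerhans cells, had ratios of 2.08 and 4.55. These were 0.86 and 1.41 without the cells holding 5 or more UMIs of *Cd207* and *Epcam* together.

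Among the genes lower in Vcam1-low cells, *Spic*, a transcription factor of iron-handling macrophages, was at 12.4 against 43.9 CPM in WT (-1.82, -2.44 to -1.25) and at 15.2 against 43.1 CPM in 6PGDKO (-1.51, -2.05 to -0.98). *Il1a*, the cytokine interleukin-1 alpha, was at 76.6 against 178 CPM and 57.3 against 210 CPM (-1.21 and -1.87). *Il10*, an anti-inflammatory cytokine, was at 12.01 against 48.36 CPM and 19.61 against 40.95 CPM (-2.01 and -1.06), although in 6PGDKO 5 cells held 83.0% of its UMIs among the members. *Cxcl1*, a neutrophil-attracting chemokine, had ratios of -1.96 and -1.02, and *Mmp2*, a gelatinase, of -1.17 and -1.69.

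*Cd38*, an NAD-consuming ectoenzyme, was lower by ratios of -1.29 and -1.75, and *Cd4*, which mouse and human macrophages can also carry, by -1.272 and -0.999. *Bhlhe41*, a transcription factor of tissue macrophages, had -0.98 and -0.97, and *Dnmt3a*, a DNA methyltransferase found in 54.9% and 49.2% of the members, had -0.95 and -1.30. *Lrp12* (-1.06 and -1.08), *Pitpnc1* (-1.14 and -0.98) and *Thap12* (-0.968 and -0.995) completed the 12 named genes. Under at least 1 of the settings tried, *Thap12* in WT (-0.16) and *Cd4* (-0.19) and *Il10* (-0.36) in 6PGDKO fell short of 1.5-fold, as did *Plac8* in WT (0.48) among the higher genes. *Apoe* differed little in WT (-0.14, -0.16 to -0.12) and more in 6PGDKO (-0.97, -0.99 to -0.95). No gene of the 31 lysosomal genes tested was higher in both libraries and 2 were lower, against 1.37% and 1.5% of all genes, with medians of -0.28 and -0.39, and none of the 57 nuclear-encoded subunits of oxidative phosphorylation passed in either direction, with medians of 0.21 and 0.29.

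**Figure D3:**
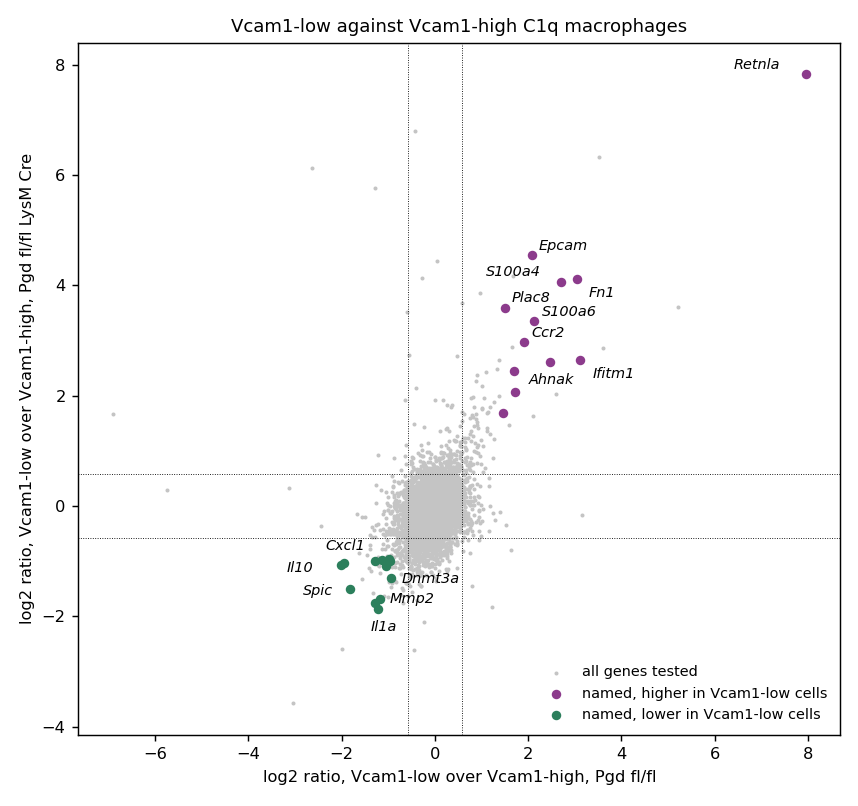
Log2 ratio of Vcam1-low over Vcam1-high C1q macrophages in WT (horizontal axis) and 6PGDKO (vertical axis) for 7154 genes (grey), with the 12 named genes higher in Vcam1-low cells in purple and the 12 lower in green. Dotted lines mark 1.5-fold, and *Retnla* stands alone at 7.96 and 7.83.

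The members were not uniform. In cells thinned to 5000 UMIs (195 WT and 210 6PGDKO members, with 51 and 28 shallower ones left out), the variance over the mean, which is about 1 for a gene that varies by sampling alone, had a median of 1.45 and 1.47 over 1206 genes. It was highest for *Retnla*, at 322 and 230. *Apoe* followed after the nuclear RNA *Malat1*, at 61.8 and 76.8, with 10th and 90th percentiles of 11 and 196.6 UMIs in WT and of 1 and 153 in 6PGDKO. The chemokines *Ccl4*, *Cxcl2*, *Cxcl10* and *Cxcl9*, the heat shock genes *Hsp90aa1* and *Hspa1a*, the ferritin chain *Fth1*, *Cd74*, *Spp1*, *Mt1*, *Cst3* and *Gm42418* made up the other 12 of the 15 genes named. *Ccl4* had a median of 1 UMI in both libraries and as many as 107 and 238 in 1 cell.

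Across these thinned cells, which share a library and a fixed depth, *Hsp90aa1* and *Hspa1a* had Spearman correlations of 0.79 and 0.71, the closest of the pairs examined. *Apoe* ran against *S100a4* (-0.49 in WT and -0.59 in 6PGDKO) and with *C1qa* (0.40 and 0.57). *Cd74* and *Cst3* had 0.47 and 0.48. At a fixed depth, an abundant gene such as *Apoe* takes UMIs from the others, and the part of this in the negative values was not tested.

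After these values had been seen, 3 small groups were set apart by 5 or more UMIs of *Retnla*, of *Cd207* and *Epcam* together, or of *Ly6c2* and *Chil3* together. A cell could enter on 1 gene of a pair. The *Cd207* and *Epcam* group held 19 of 246 members in WT (7.72%, 4.71% to 11.8%) and 23 of 238 in 6PGDKO (9.66%, 6.23% to 14.1%). *Cd207* was found in 12 and 15 of these cells and *Epcam* in 15 and 20. The *Ly6c2* and *Chil3* group held 8 (3.25%, 1.41% to 6.31%) and 25 (10.5%, 6.91% to 15.1%), with intervals that cover the counting of cells in 1 library each and leave out variation between mice. *Ly6c2* was found in 7 and 24 of these and *Chil3* in 6 and 9. Cells with *Retnla* were 2 and 5, and 217 and 187 members were in none of the 3 groups. In Vcam1-high cells the same limits gave 11 and 5 cells for *Cd207* and *Epcam*, 4 and 2 for *Ly6c2* and *Chil3*, and 0 of 264 and 0 of 215 for *Retnla*, which allow up to 1.39% and 1.70% of cells by the exact interval.

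*Cd207* and *Epcam* are genes of Langerhans cells of the skin. The cells of that group also had much *Mfge8*, a bridging protein for apoptotic cells, at 410 and 570 CPM against 65 and 20 CPM in members of none of the groups. Their *Apoe* was 5202 and 3339 CPM against 21424 and 14502 CPM, and their *Lyz2* in WT 1032 against 3528 CPM. The *Ly6c2* and *Chil3* cells had 8974 and 4133 CPM of *Apoe*, 1594 and 1078 CPM of *Plac8*, and *C1qa* at 3417 and 2930 CPM against 5836 and 4913 CPM. The few *Retnla* cells had the mannose receptor *Mrc1* at 921 and 1783 CPM against 75 and 132 CPM, and *F13a1*, coagulation factor XIII, at 1053 and 472 CPM against 4 and 26 CPM. *S100a4* was above 800 CPM in every one of these groups in both libraries, but members of none of the groups also had 244 and 448 CPM, above the 59.9 and 51.6 CPM of Vcam1-high cells.

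The second comparison set the members of 6PGDKO beside those of WT, to ask how loss of the enzyme in myeloid cells goes with the state of these macrophages. *Pgd* itself (chr4:149149991-149166705, GRCm38.p6) had 243 UMIs in WT and 59 in 6PGDKO, or 100.7 and 21.8 CPM, a ratio of -2.21 (-2.64 to -1.79). It was found in 138 of 246 and 43 of 238 members, and in 34.4% and 13.3% of thinned members against 13.9% and 13.4% of thinned T cells. In T cells *Pgd* stood at 25.9 and 30.6 CPM, so the members of 6PGDKO were at the level of cells in which LysM Cre is not active. Which exons are floxed is not given in the sources used here, and 3' tags may lie outside them. *Lyz2* (chr10:117277541-117282272), the site of the Cre insertion, fell from 7976 to 38 UMIs, or from 3304.5 to 14.1 CPM (-7.88, -8.38 to -7.42). *Lyz1*, its near-identical neighbour, had 70 and 260 UMIs, with 98.6% and 57.3% of its UMIs in 5 cells, and UMIs of near-identical copies may have been assigned to either.

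Of 7125 genes with 50 or more UMIs, 389 (5.46%) were at least 1.5-fold higher in 6PGDKO and 280 (3.93%) were lower, and the median ratio was 0.05. With TMM scaling the balance turned to 321 higher and 340 lower. In Vcam1-high cells, 369 of 7671 genes were higher and 267 lower, with the same median of 0.05. The named genes are the 12 furthest in each direction that were found in at least 10% of the cells and whose 5 richest cells held under 30% of the UMIs, both in the library where the gene is higher.

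*Fkbp5*, a co-chaperone of the glucocorticoid receptor, stood at 28.6 CPM in WT and 67.0 CPM in 6PGDKO (1.23, 0.82 to 1.65), and its ratio in Vcam1-high cells was as high (1.38, 1.04 to 1.73). *Gsr*, glutathione reductase, which uses NADPH to restore glutathione, was at 23.2 and 45.5 CPM (0.97, 0.50 to 1.45) and also had 0.97 (0.52 to 1.42) in Vcam1-high cells. *AB124611* had 1.10 and 1.12 in the 2 kinds of cell. These genes were higher in 6PGDKO in both kinds of cell.

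*S100a6* and *S100a4* behaved otherwise. *S100a6* was at 397.7 and 881.3 CPM (1.15, 1.04 to 1.26) and *S100a4* at 393.2 and 862.8 CPM (1.13, 1.02 to 1.24), while in Vcam1-high cells their ratios were -0.06 (-0.31 to 0.18) and -0.22 (-0.53 to 0.10). The difference between the 2 kinds of cell was not tested, there being no replicate. *S100a4* was detected in 81 of 246 and 137 of 238 members, and *S100a6* in 83 and 146. The monocyte marker sum moved with them, from 201.8 to 473.6 CPM. Without the 8 and 25 cells holding *Ly6c2* and *Chil3* UMIs the ratios were 1.11 (*S100a6*) and 1.09 (*S100a4*), and without the *Cd207* and *Epcam* cells 1.09 and 0.97. T cells had much *S100a4* RNA, at 1598 and 1934 CPM, and without members holding lymphocyte UMIs its ratio was 1.02.

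The other higher genes were *Plec*, the cytoskeletal linker plectin (1.03), *Mlx*, a partner of glucose-sensing transcription factors (1.03), *Uck2*, a uridine-cytidine kinase (1.02), *Slfn1* (1.004), *Armc1* (0.98), *Tut4*, an RNA uridylyltransferase (0.97), and *Rprd2* (0.94). Each had fewer than 150 UMIs a library, so their intervals were wide, such as 0.44 to 1.55 for *Armc1*. *Armc1* fell to 0.06 and *Rprd2* to 0.38 under the least favourable of the settings tried. In Vcam1-high cells *Plec* had 0.63 (0.07 to 1.21) and *Mlx* 0.55 (0.09 to 1.02). The intervals of *Uck2*, *Slfn1*, *Armc1*, *Tut4* and *Rprd2* there spanned both signs.

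Of the lower genes apart from *Lyz2* and *Pgd*, *Lilra5*, an activating leukocyte receptor, was at 75.8 CPM in WT and 25.2 CPM in 6PGDKO (-1.59, -2.02 to -1.18), with -0.73 (-1.02 to -0.43) in Vcam1-high cells. *H2-M2*, a nonclassical class I gene found in 60.2% and 39.5% of the members, was at 590.4 and 238.3 CPM (-1.31, -1.45 to -1.17), with -0.40 (-0.48 to -0.31) in Vcam1-high cells. For both genes the direction was the same in the 2 kinds of cell and the intervals did not overlap. These intervals leave out variation between cells, and nothing is known here of mouse-to-mouse variation, which they leave out too.

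*Stx6*, a syntaxin of endosomes (-1.06), *Ppcdc*, an enzyme of coenzyme A synthesis (-1.03), *Cpq*, a carboxypeptidase (-1.02), *Fblim1*, a filamin-binding protein (-0.99), *Rnf103* (-0.96), *Fam189a2* (-0.94), *Rapgef1*, an exchange factor for Rap GTPases (-0.93), and *Tmx4*, a thioredoxin-related protein of the endoplasmic reticulum (-0.92), were also lower. In Vcam1-high cells *Rapgef1* had 0.36 (-0.08 to 0.81) and *Stx6* -0.19 (-0.63 to 0.24), both with intervals across 0, as were those of *Ppcdc* (-0.11), *Rnf103* (-0.08) and *Fam189a2* (-0.23). *Cpq* (-0.37, -0.64 to -0.10), *Fblim1* (-0.48, -0.80 to -0.16) and *Tmx4* (-0.53, -0.83 to -0.23) were lower there too, with intervals below 0. *Fam189a2* in the members reached only -0.45 under the least favourable setting.

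**Figure D4:**
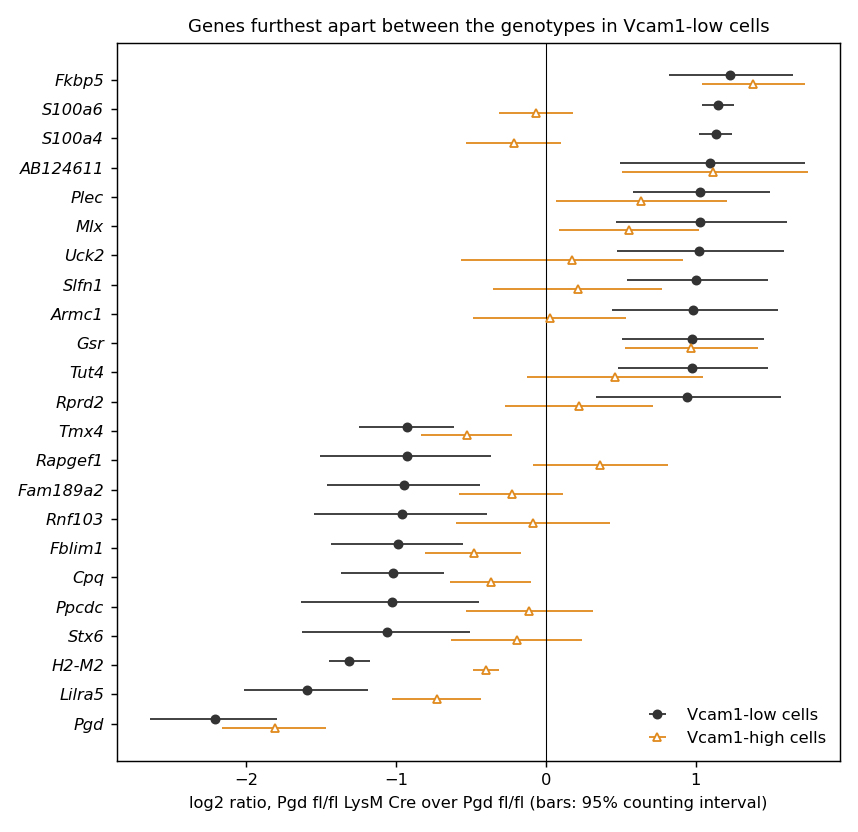
Log2 ratio of 6PGDKO over WT (horizontal axis) for the named genes except *Lyz2*, in Vcam1-low cells (filled circles) and Vcam1-high cells (open triangles), with exact 95% counting intervals. *Fkbp5*, *Gsr* and *AB124611* lie together in both kinds of cell, while *S100a4* and *S100a6* lie above 1 in Vcam1-low and near 0 in Vcam1-high cells.

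*Apoe* had a ratio of -0.71 (-0.73 to -0.69) in the members and 0.12 (0.11 to 0.14) in Vcam1-high cells. It passed 1.5-fold in the members, and the range over the settings tried was -0.77 to -0.54, which crosses that limit. In members of none of the 3 small groups *Apoe* was at 21424 and 14502 CPM. The *C1q* chains had ratios of -0.34, -0.25 and -0.45 (*C1qa*, *C1qb* and *C1qc*), none of them 1.5-fold, and *Vcam1*, on which the cells were chosen, had -0.68.

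Gene lists were described by how many of their tested members passed 1.5-fold, beside 5.46% higher and 3.93% lower over all genes and a median of 0.05. Some lists hold genes of the selection, the *C1q* chains, *Gpnmb* and *Vcam1*, whose ratios the selection limits. Many single calls were close to 1.5-fold. Of the list genes named below, *Itgam*, *Cd36*, *Lrp1*, *Spp1*, *Ctss*, *Ifit3*, *Oas2*, *Irgm2*, *Ccl6*, *Ccl7*, *Ptgs2*, *Gclm*, *Mgst1*, *Idh1*, *Ankrd37*, *Pfkp*, *Fn1*, *Cx3cr1*, *Tgfbr1*, *Itga6*, *Gpnmb* and *Vcam1* fell short of it under at least 1 of the settings tried, in the same direction. The monocyte list had 8 of 13 higher and 2 lower, with a median of 0.84. *Ly6c2*, the Ly6C antigen, was at 29.8 and 122.8 CPM (2.04) and 1.18 without the *Ly6c2* and *Chil3* cells, *Plac8* at 82.0 and 189.1 CPM (1.20), and *Fn1* at 51.8 and 111.4 CPM (1.10). The 2 lower members were *Lyz2* and *Cx3cr1*, the fractalkine receptor, at 263.9 and 173.9 CPM (-0.60, -0.78 to -0.43). In Vcam1-high cells *Ly6c2* had -2.07 and *Plac8* -0.89, but in WT these rested on 151 UMIs from 12 and 98 UMIs from 15 of 264 cells. Without the *Ly6c2* and *Chil3* cells the list's median was 0.68, and in thinned cells it was 0.48. The *Ly6c2* ratio was 2.23 without the members that held lymphocyte UMIs, T cells having 502 and 414 CPM of it. Over all the settings tried, the lowest *Ly6c2* ratio was 0.67.

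The list of resident-type macrophage genes had 6 of 14 higher and 1 lower, with a median of 0.42. That median was 0.28 in thinned cells, 0.29 without the *Retnla* cells and 1.29 when genes with 10 or more UMIs were taken in. Its leading members rested on few cells. *Folr2*, a folate receptor, went from 5 to 73 UMIs (3.70), with 100% and 84.9% in 5 cells, and *Gas6*, a ligand of the receptors that clear dying cells, from 22 to 163 UMIs (2.73), with 68.2% and 59.5%. *F13a1* (1.59) had 92.0% and 65.5% in 5 cells. *Clec10a*, a lectin, had 1.63 at 5.39 and 16.7 CPM.

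Of 22 glycolysis and hypoxia genes 4 were higher and 0 lower, with a median of 0.37. *Ndrg1*, a hypoxia-induced gene, was at 55.9 and 114 CPM (1.03, 0.73 to 1.33), and -0.12 in Vcam1-high cells. *Tpi1*, triosephosphate isomerase, was at 246.5 and 388.5 CPM (0.66, 0.51 to 0.80), *Pfkp*, a phosphofructokinase, at 63.8 and 96.9 CPM (0.60), and *Ankrd37* at 10.4 and 19.2 CPM (0.89). The list's median was between 0.31 and 0.43 over all the settings tried. Of 9 pentose phosphate pathway enzymes *Pgd* was the only one past 1.5-fold. *G6pdx*, which acts before it, had 0.32 (-0.19 to 0.83), and the list's median was 0.13. None of the 57 nuclear-encoded and 13 mitochondrially encoded subunits of oxidative phosphorylation passed, with medians of 0.14 and 0.06.

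Of 22 glutathione and NRF2 target genes 4 were higher and 0 lower, with a median of 0.22. They were *Gclm*, a subunit of the enzyme that starts glutathione synthesis (19.9 and 48.5 CPM, 1.29, 0.80 to 1.79), *Gsr*, *Mgst1*, a microsomal glutathione transferase (0.87), and *Idh1*, an NADPH-forming dehydrogenase (0.74). In Vcam1-high cells these 4 had 0.74, 0.97, 1.97 and 0.46. With a *C1q* minimum of 15, *Gclm* was at 0.34 and *Mgst1* at 0.21, and in thinned cells *Idh1* was at 0.39, while *Gsr* kept at least 0.68 under every setting tried. None of the 7 subunits of the phagocyte NADPH oxidase, which consumes NADPH, passed, with a median of -0.04.

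The lipid-associated macrophage list had 5 of 20 higher and 1 lower, *Apoe*, with a median of 0.17. *Spp1*, osteopontin, was at 199.3 and 403.3 CPM (1.02, 0.86 to 1.17), though 5 cells held 45.3% and 44.7% of its UMIs. *Fabp5*, a fatty acid-binding protein, was at 333.5 and 638.2 CPM (0.94), and *Lgals1*, galectin-1, at 251.5 and 482.1 CPM (0.94, 0.80 to 1.08), with 0.48 and 0.89 in Vcam1-high cells. *Cd36*, a scavenger receptor, had 0.84. *Gpnmb*, counted among the 5, is a gene of the selection, at 5.80 and 15.2 CPM, which leaves 4 genes that the selection did not use.

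Type I interferon response genes had 6 of 35 higher and 1 lower, with a median of 0.24. *Ifit1* was at 29.4 and 65.1 CPM (1.15), *Ifit3* at 46.0 and 88.4 CPM (0.94) and *Cmpk2* at 9.53 and 23.3 CPM (1.29), each with 41.8% to 74.6% of its UMIs in 5 cells, and *Oas2* was lower (-0.80). Interferon gamma response genes had 5 of 22 higher and 0 lower, with a median of 0.25, among them *Socs1*, an inhibitor of cytokine signalling (1.17), and *Irgm2* (0.96). That median was 0.07 without the *Ly6c2* and *Chil3* cells. *Cxcl9*, a T cell-attracting chemokine of this response, was at 863.4 and 665.2 CPM (-0.38, -0.47 to -0.28).

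Chemokines of the CC family had 4 of 12 higher and 1 lower, with a median of 0.32. *Ccl2*, the main ligand of CCR2, was at 165.3 and 306.7 CPM (0.89, 0.72 to 1.07) and had 1.01 in Vcam1-high cells, *Ccl6* was at 130.5 and 262.7 CPM (1.01) and *Ccl7* at 38.1 and 84.4 CPM (1.15). *Ccl17*, a dendritic cell chemokine, went from 6.63 to 115.8 CPM, with 68.8% and 73.2% in 5 cells. Of 20 inflammatory genes 3 were higher and 2 lower, with a median of 0.06. *Ptgs2*, the inducible cyclooxygenase, had 0.70 (0.46 to 0.94), and *Il12b* and *Saa3*, at -2.04 and 5.62, had all of their UMIs in 5 cells or fewer. Of 17 immune-inhibitory genes 3 were higher and 0 lower, with a median of 0.03.

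Genes of antigen presentation by MHC class II had 1 of 11 higher and 1 lower, with a median of -0.16, the lowest of the 29 lists. *Cd74*, the invariant chain, was at 29441.2 CPM in WT and 19824.4 CPM in 6PGDKO (-0.57, -0.59 to -0.55), and *H2-Eb1* at 12257.2 and 8922.9 CPM (-0.46), both short of 1.5-fold. The protease *Ctss*, cathepsin S, which cuts the invariant chain, was at 5177.6 and 3330.2 CPM (-0.64, -0.68 to -0.60) and passed. In Vcam1-high cells these genes had -0.41, -0.37 and -0.41, and none passed. The list's median was -0.47 without the *Cd207* and *Epcam* cells. *H2-Ob*, the gene counted as higher, was at 12.8 and 24.1 CPM.

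Of 31 lysosomal genes 0 were higher and 2 lower, *Ctss* among them, with a median of -0.11. Complement genes had 1 of 10 higher, *Itgam*, a chain of complement receptor CR3, at 62.1 and 95.1 CPM (0.61, 0.32 to 0.91), and 0 lower. Efferocytosis genes had 4 of 20 higher and 0 lower, with a median of 0.06, among them *Lrp1* (0.65), which had 0.80 in Vcam1-high cells. Matrix and remodelling genes had 5 of 18 higher and 0 lower, with a median of 0.25, among them *Adam8*, a metalloprotease (0.81). Of 16 TGF-beta pathway genes 1 was lower, *Tgfbr1*, the signalling receptor, at 225 and 149 CPM (-0.59, -0.78 to -0.41), and 0 higher. The adhesion list had 2 of 18 higher and 3 lower, among them *Itga6* (-0.72). *Vcam1*, on which the cells were chosen, is another of the 3. None of the 6 Fc gamma receptor genes, the 19 MHC class I genes or the 24 CSF receptor and macrophage transcription factor genes passed, with medians of -0.04, -0.05 and -0.04.

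**Figure D5:**
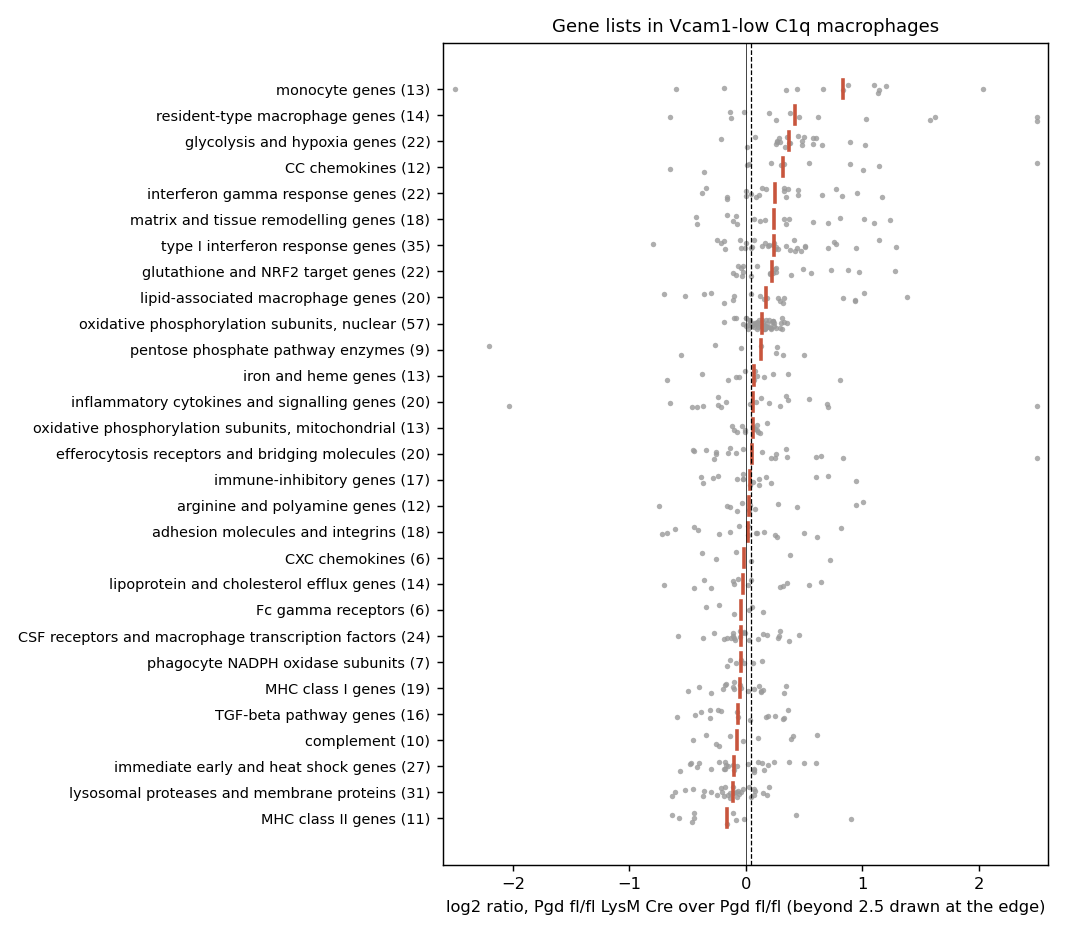
Log2 ratio of 6PGDKO over WT in Vcam1-low cells (horizontal axis) for the tested genes of 29 lists (grey points, number of genes in brackets), with each list's median as a red bar and the median over all genes, 0.05, as a dashed line. Medians run from -0.16 for MHC class II to 0.84 for the monocyte genes, and 6 points beyond 2.5 are drawn at the edge.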

How the data were processed

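Per the labels and the processing notes, the libraries were 10x Genomics single-cell libraries counted with Cell Ranger 6.1.2 on mm10, with Seurat downstream. The authors deposited raw UMI counts per gene and barcode, together with counts of the sample oligonucleotides, which were left out of the totals. The study's cell filter had not been applied. It was applied here, and both libraries then hold more cells than the study says it analysed. Suspensions of both genotypes were tagged and pooled before loading.

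Python 3.11.15, numpy 2.4.6, pandas 2.3.3, scipy 1.17.1 and matplotlib 3.10.9 were used. UMIs were summed over cells and scaled to CPM. Log2 ratios carry exact conditional, levels exact Poisson and shares exact Clopper-Pearson 95% intervals, for counting error only. The ratio step was run on simulated Poisson counts, the model its intervals assume, so that run cannot speak to variation between cells. The cells, gene lists and comparisons were chosen with earlier results of these data known. Named genes were the markers, *Pgd*, *Lyz2*, the selection genes and the list members of largest ratio with 50 or more UMIs. Between the genotypes, the 12 highest and 12 lowest ratios were added among genes with 100 or more UMIs, found in 10% of the cells and with under 30% of their UMIs in 5 cells, and against Vcam1-high cells the 12 highest and 12 lowest by the smaller ratio of the 2 libraries, with 100 or more UMIs in each. Selection genes, receptor gene segments and unnamed models were left out. No doublet caller was run. Leaving out cells with lymphocyte UMIs or the deepest 5% stood in for it. Altogether 12 alternatives were planned, among them edgeR 4.0.16 TMM scaling in R 4.3.3, and 4 were added after the data were seen. Positions are from RefSeq on GRCm38.p6. Values of a few genes are not reported here.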

Additional observations from a re-analysis of the deposited data

Results flagged for a closer look

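For *Apoe*, the log2 ratio of 6PGDKO over WT was -0.71 in Vcam1-low and 0.12 in Vcam1-high C1q macrophages, and for *C1qb* it was -0.253 and 0.041. These were singled out because the ratios had opposite signs in the 2 kinds of cell and no counting interval included 0. Those intervals treat every UMI as independent. Among thinned members *Apoe* had a variance over the mean of 61.8 in WT and 76.8 in 6PGDKO, so its intervals are too narrow. *C1qb* is 1 of the genes on which the cells were chosen, so that its level is limited by the selection. The difference was not tested, since each genotype is 1 library. The share of members with 5 or more *Ly6c2* and *Chil3* UMIs, which are low in *Apoe* and *C1qb*, was 3.25% in WT and 10.5% in 6PGDKO, and without them the *Apoe* ratio was -0.63 and the *C1qb* ratio -0.24. Members with 0 *Vcam1* UMIs, 93 of 246 and 136 of 238, were also low in *Apoe*, at 14067.6 and 7661.6 CPM. The 19 and 23 *Cd207* and *Epcam* cells had 5202 and 3339 CPM. The part of the members with 0 *Vcam1* UMIs in the *Apoe* ratio was not tested.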

How the results depend on the processing

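No paired analysis was possible because each genotype is 1 library and the labels give no replicate numbers, and for the same reason no replicate could be left out. A *Vcam1* limit of 3 gave shares of kept cells of 5.19% in WT and 6.90% in 6PGDKO and 167 genes lower than in Vcam1-high cells, and a limit of 8 gave shares of 9.09% and 10.7%. A *C1q* minimum of 15 gave a share of 10.4% in 6PGDKO and turned the *Cxcl1* ratio between the genotypes to -0.0087, and a minimum of 60 gave 5.53% and 6.75%. Without cells holding lymphocyte UMIs the shares were 5.67% and 6.72%. In the 195 and 210 cells thinned to 5000 UMIs, which have fewer counts, the *Pgd* ratio was -1.69, 711 genes were higher and 650 lower between the genotypes, 151 were higher and 207 lower than in Vcam1-high cells, and the *Nt5e* ratio turned to -0.21. The mean of per-cell CPM gave 197 genes lower than in Vcam1-high cells, and the cause was not tested. With genes of 10 or more UMIs, 1125 were higher and 1012 lower between the genotypes and 312 higher and 265 lower than in Vcam1-high cells, and with 200 or more these were 89, 57, 38 and 30, as fewer genes were counted. With edgeR's TMM scaling 321 genes were higher and 340 lower between the genotypes. Of the alternatives chosen after seeing the data, leaving out the *Retnla* cells turned the *Retnla* ratio of Vcam1-low over Vcam1-high in WT to -0.51. Of the ratios of named genes between the genotypes, 1652 values stayed within the counting interval, 175 left it and 2 that had passed 1.5-fold changed sign (sign changes of smaller ratios are not counted here), and of the list medians 415 did not move by more than 0.1 and 49 did. Precision is limited by UMI counts, by a few cells carrying a gene and by the single library of each genotype.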
